A study of Homo sapiens with 22 samples.

Results

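The 3 chromatin targets described here are E2F3, RNA polymerase II phosphorylated on serine 5 (Pol2S5p) and histone H3 trimethylated on lysine 27 (H3K27me3), each mapped by ChIP-seq in control 22Rv1 cells. ChIP-seq recovers DNA bound to a protein with an antibody and sequences it, and places with more reads than the background are listed as peaks. Members were all peaks of the 3 control lists: 22988 E2F3 regions, 35493 Pol2S5p regions and 2540 H3K27me3 regions, together 61021 of the 291055 regions in the 8 lists deposited for the series. 22Rv1 is an established human prostate cancer cell line, and the series studies the linker histone variant H1-10 in it. The control cells carry no treatment in the labels other than "Ctrl", and the peak names of the E2F3 list carry the tag EV. Per the labels, the antibodies were sc-56665 AC for E2F3, ab5408 for Pol2S5p and ab6002 for H3K27me3. Each target had 1 library, so no value below has a replicate check, no p-value was computed, and intervals cover counting error alone. Regions of 1 list share that library and are not replicates.

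E2F3 is a transcription factor of the E2F family, which binds near the start sites of genes for DNA replication and cell division and is held in check by the retinoblastoma protein. RNA polymerase II carries phosphate on serine 5 of its tail repeats while it initiates transcription and pauses near the start site, so Pol2S5p marks promoters and enhancers in use. H3K27me3 is laid down by Polycomb repressive complex 2, often over broad domains of silent developmental genes. Active promoters usually lack it, while bivalent promoters of stem cells carry it together with marks of activity. No gene annotation of the build of these lists (hg19) was used, so regions are named by position and not by gene, and the prostate identity of the cells could not be checked against marker genes.

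The lists differed in length and strength. E2F3 regions covered 15.6 Mb, Pol2S5p regions 43.1 Mb and H3K27me3 regions 1.52 Mb, which is 0.505%, 1.39% and 0.0491% of the 3092.69 Mb spanned by the 24 chromosomes (measured to the last region of any deposited list). The median fold enrichment at the summit, the authors' ratio to background at the highest base of a peak, was 8.98 for E2F3, 5.17 for Pol2S5p and 4.83 for H3K27me3. The share of regions with a -log10 q of 5 or more was 86.0% for E2F3, 61.6% for Pol2S5p and 26.8% for H3K27me3. The H3K27me3 list is thus short and weak, and a place outside it may still carry the mark below the caller's threshold. It is in narrow-peak format, with a median width of 460.5 bp, and merging its peaks within 1 kb left 1885 regions. One broad domain may therefore be listed as several regions. The read depth behind each list is unknown here. The folder written into the peak names is shared by Pol2S5p and H3K27me3 and differs for E2F3. Overlaps with E2F3 are therefore between folders, and what part a difference in the authors' processing has in them cannot be told apart.

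Most E2F3 regions lay at initiating polymerase, and few regions of either target met H3K27me3, which met E2F3 more often than polymerase. A region was called joint where it overlapped a region of another target by at least 1 bp. Of the E2F3 regions, 15630 (68.0%, 95% Wilson interval 67.4 to 68.6%) were joint with Pol2S5p, and of the Pol2S5p regions 14152 (39.9%, 39.4 to 40.4%) were joint with E2F3. The shared bases came to 11.3 Mb, which is 72.4% of the E2F3 bases and 26.3% of the Pol2S5p bases. H3K27me3 regions met E2F3 in 210 cases (8.27%, 7.26 to 9.40%) and Pol2S5p in 19 (0.748%, 0.479 to 1.17%). E2F3 regions, which cover 0.505% of the span, held 3.27% of the H3K27me3 bases, and Pol2S5p regions, which cover 1.39%, held 0.588%. Seen from the other side, 203 E2F3 regions (0.883%) and 16 Pol2S5p regions (0.0451%) met H3K27me3. With lists cut to the 2540 strongest regions each, which changes length and strength together, 29.3% of E2F3 regions met Pol2S5p, 28.7% of Pol2S5p regions met E2F3, 0.0787% of H3K27me3 regions met E2F3 and 0 met Pol2S5p.

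Joining regions that overlapped across lists gave 44942 loci. E2F3 with Pol2S5p made up 13910 of them (31.0%), E2F3 with H3K27me3 183 (0.407%), Pol2S5p with H3K27me3 6, and all 3 targets 17. Polymerase alone was the most frequent state with 21335 loci (47.5%), followed among the sole states by E2F3 alone with 7171 (16.0%) and H3K27me3 alone with 2320 (5.16%). Pol2S5p regions alone were weak, with a median -log10 q of 4.23. Loci were not counted under other settings. However, most Pol2S5p regions were joint with E2F3 at a -log10 q of at least 5 (58.2%) and with peaks within 1 kb merged (53.2%). Most E2F3 and Pol2S5p loci (89.7%) held 1 region of each target. Median locus widths were 1194 bp for E2F3 with Pol2S5p and 1013 bp for E2F3 with H3K27me3, against 381 bp for E2F3 alone, 567 bp for Pol2S5p alone and 451 bp for H3K27me3 alone.

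**Figure D1:**
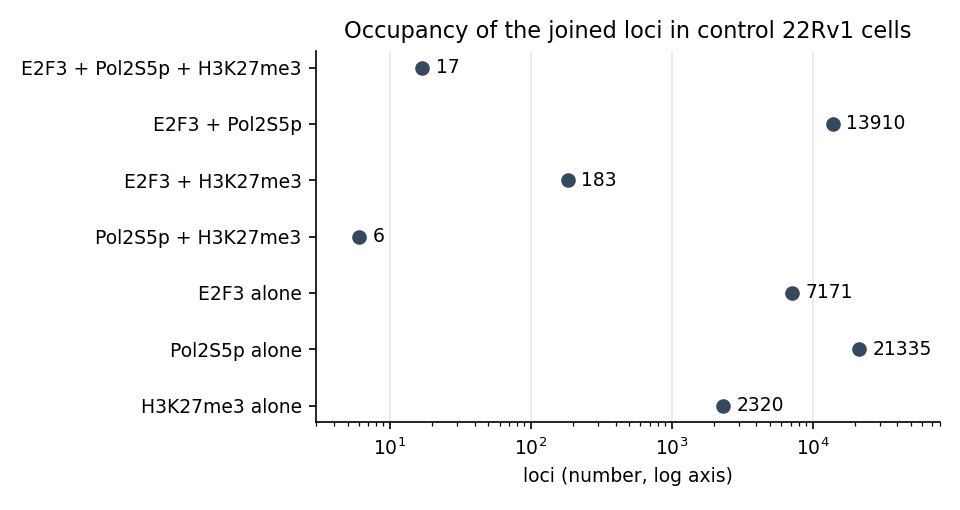
Number of loci (log axis) in each of the 7 occupancy states after regions that overlap across the 3 control lists were joined, 1 point per state. Of 44942 loci, 13910 held E2F3 and Pol2S5p, while 17 held all 3 targets and 6 held Pol2S5p with H3K27me3.

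Joint occupancy of E2F3 and polymerase followed peak strength in both lists. Each list was ranked by the authors' -log10 p and divided into 10 classes of equal size. In the strongest class of E2F3 regions 2231 of 2298 (97.1%, 96.3 to 97.7%) were joint with Pol2S5p, and in the weakest 977 of 2299 (42.5%, 40.5 to 44.5%), with the lowest share, 40.2%, in class 9. For Pol2S5p the range was wider. In its strongest class 3471 of 3549 regions (97.8%, 97.3 to 98.2%) were joint with E2F3, in class 4 55.4%, in class 5 27.2%, and in the weakest 118 of 3550 (3.32%, 2.78 to 3.97%). The median fold enrichment of Pol2S5p was 13.98 at regions joint with E2F3 and 4.15 at the others. That of E2F3 was 11.5 at regions joint with Pol2S5p and 6.34 at the others. Over all E2F3 regions the share at H3K27me3 was lowest among the strong ones, most of which were joint with Pol2S5p: 2 of 2298 in the strongest class (0.0870%, 0.0239 to 0.317%), and up to 36 of 2299 in class 8 (1.57%, 1.13 to 2.16%). Among E2F3 regions without Pol2S5p this order was not seen, with 3.38%, 2.83% and 2.26% in 3 strength classes, strongest first. For H3K27me3 the order was the other way round, with 46 of the 254 strongest regions at E2F3 (18.1%, 13.9 to 23.3%) and between 3.54% and 11.4% in the other 9 classes. H3K27me3 regions joint with E2F3 were also wider, with medians of 642.5 bp against 452 bp, and their median -log10 q was 4.66 against 3.76. With joint defined by summits less than 200 bp apart, the median -log10 q was 3.77 in joint and other regions alike. None of the 3549 strongest Pol2S5p regions met H3K27me3 (upper Wilson bound 0.108%). Over all Pol2S5p regions the share was 16 of 35493 (0.0451%), and classes 7 and 8 also had 0. No order by polymerase strength can be read from counts this small.

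**Figure D2:**
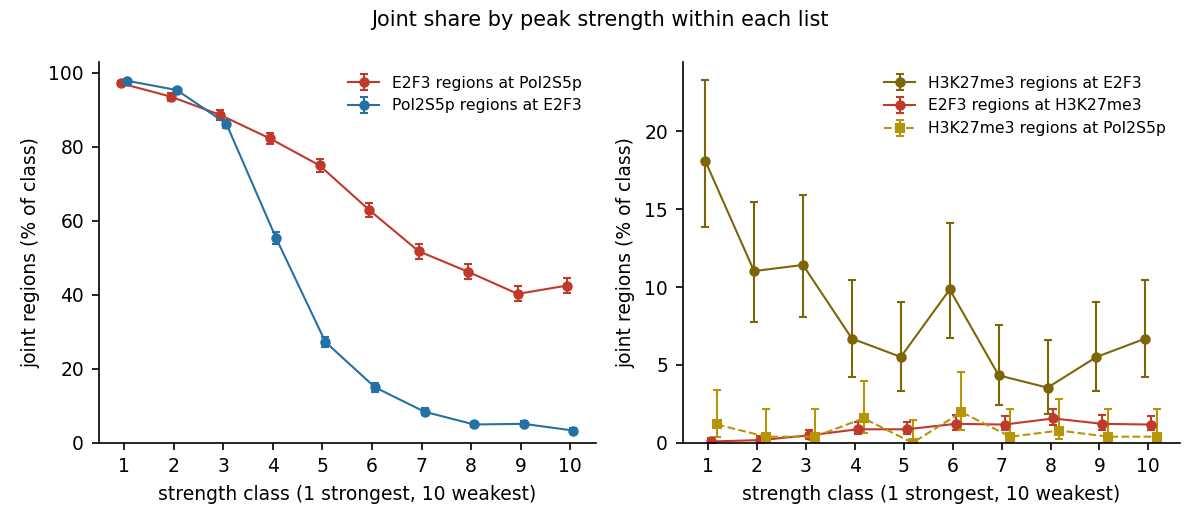
Share of regions (%) joint with another target in 10 strength classes of equal size within each list, from 1 (strongest) to 10 (weakest), with 95% Wilson intervals; left, E2F3 and Pol2S5p; right, pairs with H3K27me3 on a smaller scale. E2F3 regions go from 97.1% to 42.5% at Pol2S5p, Pol2S5p regions from 97.8% to 3.32% at E2F3, and H3K27me3 regions have their highest share at E2F3, 18.1%, in class 1.

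The joint E2F3 and Pol2S5p loci that ranked highest in both lists were chosen by the weaker of the 2 ranks. At chr6:27859667-27863655 a Pol2S5p region with a fold enrichment of 43.2 enclosed an E2F3 region of 2139 bp with a fold enrichment of 115, and the summits lay 1444 bp apart. At chr12:49522507-49525722 the fold enrichments were 46.5 for Pol2S5p and 70.0 for E2F3, with summits 552 bp apart. At chr7:44835089-44846187 they were 36.1 and 43.4, with summits 220 bp apart. The strongest E2F3 regions of these 3 loci were 2139, 1665 and 1720 bp wide and lay inside the wider Pol2S5p region, and all 3 summit distances were above the median of joint regions.

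Within joint regions the summits of E2F3 and polymerase lay close together. The median distance from an E2F3 summit to the nearest summit of the Pol2S5p regions it overlapped was 127 bp (interval 124 to 129, n = 15630), with quartiles of 59 and 260 bp. It was at most 50 bp in 21.6% of cases and at most 200 bp in 67.6%, and 40 summits fell on the same base. In 1229 cases (7.86%) it was over 1 kb, up to 95.8 kb in the widest Pol2S5p region. Of the joint E2F3 summits, 97.1% lay inside a Pol2S5p region, and 93.3% of joint Pol2S5p summits lay inside an E2F3 region. In genome coordinates the offset had no side, with a signed median of 0 bp and the Pol2S5p summit to the right in 49.9% of 15855 overlapping pairs. The strand of transcription was not used.

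In 8209 of the 15855 pairs (51.8%) the E2F3 summit lay in the middle one of 3 equal parts of the Pol2S5p region. What share the overlap rule and the widths of the regions would give by themselves was not tested. E2F3 lay wholly inside Pol2S5p in 61.3% of pairs, Pol2S5p inside E2F3 in 8.70%, and the regions overlapped in part in 29.96%, with a median of 641 shared bp. Wide polymerase regions leave room for larger distances. From the narrowest to the widest of 5 width classes of Pol2S5p regions, the median distances were 93, 97, 117, 154 and 408.5 bp. By E2F3 strength in 3 classes, strongest first, they were 131, 113 and 166 bp.

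Summits of E2F3 and H3K27me3 lay further apart where these targets met. The median summit distance of the 203 joint E2F3 regions was 382 bp (350 to 447), and 38.4% of those summits (32.0 to 45.3%) lay inside the H3K27me3 region, against 97.1% for Pol2S5p above. Among regions joint with E2F3, those of H3K27me3 were narrower than those of Pol2S5p, with medians of 642.5 and 1095 bp. What part width has in the shares of summits inside was not tested. From the mark's side the 210 joint regions had a median distance of 389.5 bp and 30.5% of their summits inside an E2F3 region. The 16 Pol2S5p regions at the mark had a median distance of 417 bp (170 to 1280).

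**Figure D3:**
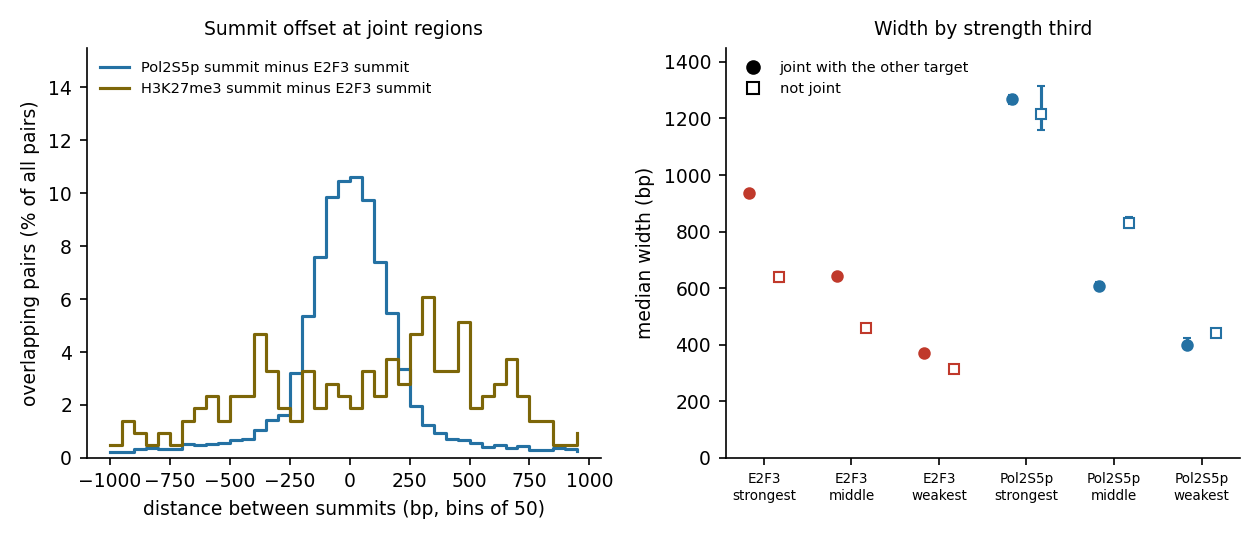
Left, distribution of the signed distance (bp, bins of 50) from the E2F3 summit to the summit of Pol2S5p or H3K27me3 over overlapping pairs, as % of all pairs within or beyond the range drawn; right, median widths (bp, with 95% intervals) of regions joint with the other target and not joint, in 3 strength classes per list. The Pol2S5p curve peaks at 0 bp and the H3K27me3 curve is low there; joint E2F3 regions are wider in each class, while joint Pol2S5p regions have the smaller median in the middle and weakest classes.

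Joint regions were wider, as the overlap rule by itself favours. The median width of E2F3 regions was 716 bp (709 to 724) when joint with Pol2S5p and 382 bp (378 to 386) when not. For Pol2S5p it was 1095 bp (1082 to 1107) when joint with E2F3 and 567 bp (560 to 573) when not. With joint instead defined by summits less than 200 bp apart, the medians were 699 and 458 bp for E2F3 and 1030 and 629 bp for Pol2S5p. This rule uses no edges, but it is not free of width, since summit distances were larger in wide Pol2S5p regions. Stronger regions were also wider, and within 3 strength classes the lists parted. E2F3 medians, joint before not joint, were 935 and 639 bp in the strongest class, 642 and 458 bp in the middle class, and 371 and 314 bp in the weakest. Pol2S5p medians were 1269 and 1217 bp in the strongest class with overlapping intervals, but 606 and 831 bp in the middle class and 400 and 440 bp in the weakest, where joint regions were the narrower. H3K27me3 regions joint with E2F3 had a median of 642.5 bp (560 to 741), against 452 bp (445 to 463) for those not joint. By summit windows that difference was within the intervals, at 463 bp (408 to 637) against 460.5 bp (451 to 470).

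Most joint polymerase regions held a single E2F3 region: 12910 of 14152 (91.2%) held 1, 973 held 2 and 269 held more. The most were 17 E2F3 regions in a Pol2S5p region of 24097 bp at chr22:46467184-46491280. The next held 10, in the neighbouring Pol2S5p region of 25360 bp at chr22:46491684-46517043. Among the widest joint Pol2S5p regions, E2F3 occupied a small part of the length. At chrX:53251580-53350658 a polymerase region of 99.1 kb held 8 E2F3 regions of 261 to 1267 bp, 4.14% of its length. At chrX:66762604-66819997 one of 57.4 kb held 2 of 272 and 554 bp, 1.44% of its length. At chr8:81397490-81449227 one of 51.7 kb held 4 of 341 to 1850 bp, 7.99% of its length. The nearest pair of summits in these 3 regions lay 5, 59 and 344 bp apart.

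Of the 2540 H3K27me3 regions, 2320 (91.3%, 90.2 to 92.4%) met neither other target, 201 met E2F3 without Pol2S5p, 10 Pol2S5p without E2F3, and 9 both. These are counts of narrow peaks and not of domains. A high share that met neither follows from coverage by itself, since E2F3 and Pol2S5p regions cover 0.505% and 1.39% of the span. They held 3.27% and 0.588% of the H3K27me3 bases, which is above that coverage for E2F3 and below it for Pol2S5p. The strongest joint loci with E2F3 were led by chr7:69061786-69063718, where the fold enrichments were 24.9 for E2F3 and 6.70 for H3K27me3 and the summits 579 bp apart. At chr11:64410123-64411462 they were 23.8 and 6.27, with summits 931 bp apart. At chr15:93615740-93617218 they were 25.9 and 6.01, with 643 bp between the summits. These loci were chosen for their ranks in both lists.

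E2F3 regions with and without polymerase differed in how often they met the mark. Of the 15630 E2F3 regions joint with Pol2S5p, 16 (0.102%, 0.0630 to 0.166%) overlapped H3K27me3, against 187 of the 7358 without Pol2S5p (2.54%, 2.21 to 2.93%), a difference of -2.44 percentage points (95% Newcombe interval -2.83 to -2.10). The order was the same in 3 strength classes of E2F3, strongest first: 0.0568% against 3.38%, 0.152% against 2.83%, and 0.120% against 2.26%. Leaving out chromosome 7, which held the most H3K27me3 regions, gave 0.0943% against 2.41%. Within 5 kb of an H3K27me3 region lay 0.569% of E2F3 regions with Pol2S5p and 7.86% of those without. An H3K27me3 region lay in the 2 kb to either side of 63 E2F3 regions with Pol2S5p (0.403%) and of 485 without (6.59%). It lay on both sides of 4 with Pol2S5p and of 108 without (1.47%).

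Loci with polymerase and the mark were few. Of the 17 loci with all 3 targets, 9 had bases common to all 3, between 15 and 710 bp. In 10 a Pol2S5p region overlapped an H3K27me3 region, and in the other 7 they were linked through E2F3 alone. The fold enrichment of H3K27me3 in the 17 was 2.91 to 7.30, with a -log10 q of 5 or more in 5. On chromosome 17 lay 5 of the 17 loci, a count too small to read further. That chromosome held 5.75% of all E2F3, 7.04% of all Pol2S5p and 4.69% of all H3K27me3 regions. The highest-ranked was chr19:1435445-1446994, with fold enrichments of 40.2 for Pol2S5p, 24.6 for E2F3 and 5.54 for H3K27me3, where the mark lay beyond the end of the polymerase region. At chr17:7606976-7609165 they were 5.24, 10.2 and 5.24, with 15 bp common to all 3. At chr1:148853906-148854917 they were 3.37, 13.99 and 2.91, with 335 bp in common. Places of known high background were not filtered out, and their part in such loci was not tested. The 3 highest of the 6 loci with polymerase and mark but no E2F3 were chr19:1003239-1010748, chr1:2434643-2439808 and chr9:137699187-137716634. Their Pol2S5p fold enrichments were 14.2, 11.5 and 18.2, those of H3K27me3 4.67, 4.92 and 4.72, and the summits lay 1616, 2359 and 660 bp apart.

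Regions that were not joint lay at different distances from the other targets. The 7358 E2F3 regions without Pol2S5p had a median of 51.6 kb (48.4 to 53.9) to the nearest Pol2S5p region, edge to edge, and 50.6% of them lay over 50 kb away. The 21341 Pol2S5p regions without E2F3 had a median of 11.95 kb (11.7 to 12.2) to the nearest E2F3 region, and 25.2% lay within 5 kb. Their distances to joint polymerase regions largely follow from this, since such regions overlap E2F3. Within 5 kb of a Pol2S5p region that held E2F3 lay 27.2% of them, with a median of 12.4 kb. Of the E2F3 regions without Pol2S5p, 10.2% lay within 5 kb of a joint E2F3 region, with a median of 71.2 kb. H3K27me3 lay closer to E2F3 than to polymerase, although the Pol2S5p list was the longer. Its regions not joint with E2F3 had a median of 19.8 kb (18.1 to 21.2) to E2F3, and those not joint with Pol2S5p 72.5 kb (68.9 to 75.9) to Pol2S5p. Of all H3K27me3 regions, 33.6% (31.8 to 35.5%) lay within 5 kb of E2F3 and 5.75% (4.91 to 6.72%) within 5 kb of Pol2S5p.

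**Figure D4:**
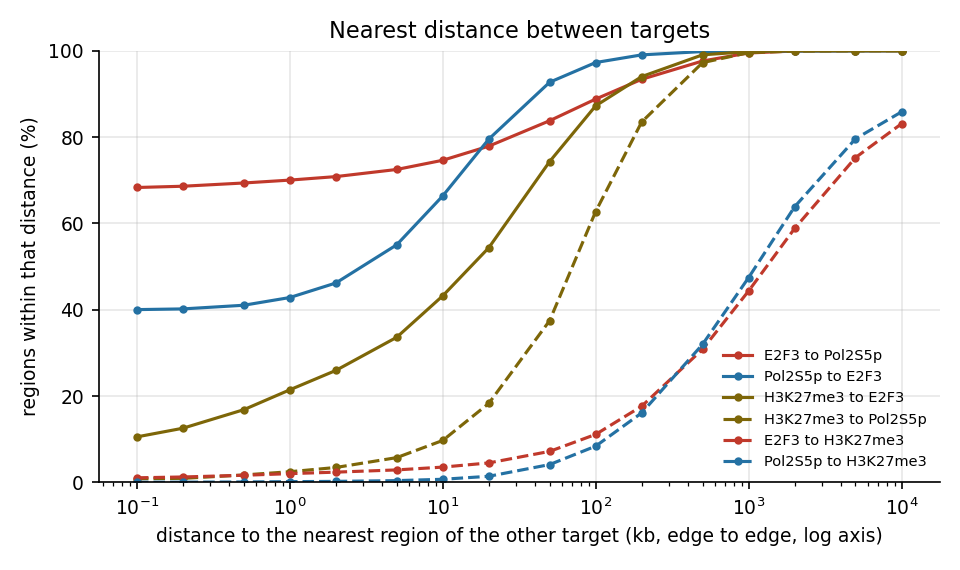
Cumulative share of regions (%) by edge-to-edge distance (kb, log axis) to the nearest region of another target, 0 for joint regions, 1 line per list and direction. At 5 kb the H3K27me3 lines stand at 33.6% for E2F3 and 5.75% for Pol2S5p; lines towards the short H3K27me3 list rise last, and at 10000 kb stand at 83.1% for E2F3 and 85.8% for Pol2S5p.

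Some of the strongest regions stood alone. The E2F3 region at chr8:143858168-143859919 had a fold enrichment of 84.6 and lay 36.7 kb from the nearest Pol2S5p region. At chr2:16079714-16080938 the E2F3 fold enrichment was 58.3, with 300.3 kb to Pol2S5p, and at chrX:108297342-108297858 it was 28.4, with 482 kb. Sole polymerase was strongest at chr17:41444555-41447121 and chr17:41436996-41439636, with fold enrichments of 63.8 and 48.4 and 29.0 and 36.5 kb to E2F3, and at chr1:210546735-210547914, with 41.3 and 43.8 kb. The sole H3K27me3 region with the highest -log10 q, chr2:162138049-162138494, had a fold enrichment of 4.33, below the list median, and its neighbour chr2:162138775-162139143 had 5.96. Between them in rank was chr7:1284999-1288749, a region of 3751 bp whose fold enrichment of 12.8 was the highest of the H3K27me3 list. It lay 8.90 kb from E2F3 and 68.9 kb from Pol2S5p. The H3K27me3 regions on chromosome 2 named here had a -log10 q of 53.2 and 30.2, against a list median of 3.77. The sole E2F3 region on chromosome X had a -log10 q of 206, near the 209 of the E2F3 region on chromosome 2 despite its lower fold enrichment. Places of known high background were not filtered out, and whether any region named in this paragraph belongs to them was not tested.

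The targets were spread differently over the chromosomes. E2F3 and Pol2S5p were densest on chromosome 19, with 28.3 and 52.1 regions per Mb, and next on chromosome 17, with 16.3 and 30.8. H3K27me3 was densest on chromosome 7, which held 475 of its 2540 regions (18.7%, 17.2 to 20.3%) at 2.99 per Mb, followed by chromosomes 16 and 20 at 2.35 and 2.19. Chromosome X had 565 E2F3 and 879 Pol2S5p regions and 0 H3K27me3 regions. The share of E2F3 regions joint with Pol2S5p ran from 54.7% (49.8 to 59.4%) on chromosome 18 to 82.2% (80.3 to 83.9%) on chromosome 19, and was 78.1% on X. That of Pol2S5p regions joint with E2F3 ran from 30.9% on chromosome 22 to 54.7% on chromosome 18 (Y, with 2 E2F3 regions, left aside in both). Over the other 23 chromosomes the densities of E2F3 and Pol2S5p had a Spearman rho of 0.945, those of H3K27me3 and Pol2S5p 0.604, and those of H3K27me3 and E2F3 0.571. These describe the chromosomes, which share mappable length and gene content between the lists.

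**Figure D5:**
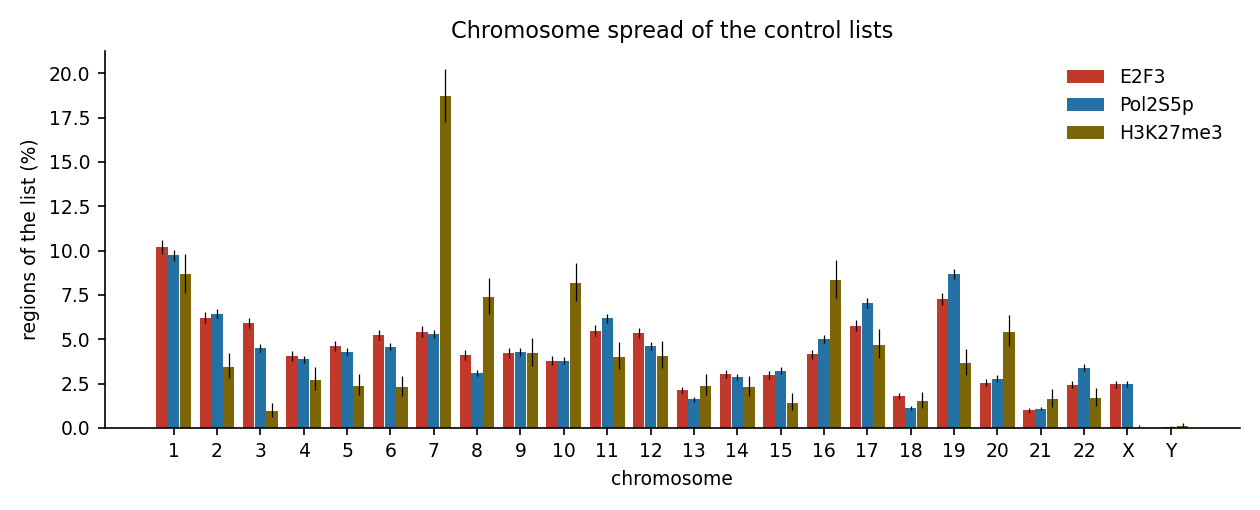
Share of each control list (% of its regions, bars from 0) on each chromosome, with 95% Wilson intervals. H3K27me3 has 18.7% of its regions on chromosome 7 and 0 on X, while E2F3 and Pol2S5p follow each other with high shares on chromosomes 1 and 19.

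At the scale of 500 kb windows, most windows with the mark also held the other targets, as did most of all windows spanned. Of 6199 windows spanned, 4800 held a region of any target and 656 held H3K27me3. Of these 656, 517 (78.8%) also held Pol2S5p and 597 (91.0%) E2F3, against 64.6% and 74.0% of all windows spanned. The windows that held 50% of a list's regions were 62 for H3K27me3 (9.45% of the windows it occupied), 508 for Pol2S5p (12.7%) and 859 for E2F3 (18.7%), and a shorter list occupies fewer windows. The window with most held 84 H3K27me3, 8 E2F3 and 4 Pol2S5p regions and lay on chromosome 10 between 134.5 and 135 Mb. On chromosome 7 between 1 and 1.5 Mb there were 79, 18 and 33, and on chromosome 16 between 1 and 1.5 Mb 71, 23 and 36. On chromosome 7 between 0 and 0.5 Mb there were 72, 4 and 1. Across windows the counts of E2F3 and Pol2S5p had a Spearman rho of 0.787, those of H3K27me3 and E2F3 0.120, and those of H3K27me3 and Pol2S5p 0.0704, as descriptions of windows that share mappable length.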

How the data were processed

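ChIP-seq peak lists of 3 targets in control 22Rv1 cells were used, 1 library each, grouped by their labels. The build is hg19, and reads went through FastQC, fastp and Bowtie, per the submitters' processing notes. Not given in the sources used here are tool versions, the peak caller with its threshold, and which input served which list. The authors called peaks separately for every library. Besides positions, the deposited columns are a score, a fold enrichment (the authors' ratio to background at the summit), and the -log10 of the authors' p-values and q-values. Fold and -log10 values were used to describe and rank peaks within a list.

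No peaks of a list touched, so each peak is a region. Coordinates are 1-based, distances edge to edge unless said otherwise, and overlaps were counted with Python 3.11.15, numpy 2.4.6 and pandas 2.3.3, checked against bedtools 2.31.1 and tested on simulated lists. Shares carry 95% Wilson intervals, the difference of shares a Newcombe interval (statsmodels 0.14.6), and medians order-statistic intervals. Regions named were, per occupancy state, the 3 whose weakest rank by -log10 q was best, for sole states the 3 with the highest -log10 q and no other target within 5 kb, and the 3 widest E2F3 and Pol2S5p pairs. The regions with most E2F3 and the windows with most H3K27me3 were picked after their values were seen. Members, rules and lists were chosen with earlier results of these data known. Alternatives were a stricter threshold (-log10 q of 5 or more), equal list lengths, other overlap rules, merged peaks, subsets of chromosomes, summit windows and strength classes. Planned counts of occupied promoters by gene list and of motifs at summits were not run, since no hg19 annotation or genome was used here.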

Additional observations from a re-analysis of the deposited data

How the results depend on the processing

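Of 94 values computed under alternatives for 19 results, 24 moved by less than their counting interval and 70 moved further. No paired analysis was possible because each target had 1 library. With lists limited to a -log10 q of at least 5, E2F3 met Pol2S5p in 69.6% and H3K27me3 in 0.339%, Pol2S5p met E2F3 in 58.2% and H3K27me3 in 0.00915%, H3K27me3 met E2F3 in 10.3% and Pol2S5p in 0.294%, and 1 H3K27me3 region met both. In the same order, equal numbers of the strongest regions gave 29.3%, 0.0787%, 28.7%, 0%, 0.0787%, 0% and 0 regions; a 50% reciprocal overlap gave 39.1%, 0.135%, 25.4%, 0.00845%, 1.22%, 0.118% and 0; a region's own summit inside the other region gave 66.0%, 0.339%, 37.2%, 0.0141%, 2.52%, 0.433% and 3; and within 1 kb gave 70.0%, 2.04%, 42.8%, 0.180%, 21.5%, 2.48% and 45. Merging peaks within 1 kb moved E2F3 at H3K27me3 to 1.02%, Pol2S5p at E2F3 to 53.2% and H3K27me3 at E2F3 to 11.2%. Autosomes alone, and leaving out chromosome 7 (chosen after seeing the data), moved none of these 7. In each of these settings the share of E2F3 regions at Pol2S5p was above that of H3K27me3 regions.

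The median summit distance of E2F3 and Pol2S5p was 123 bp at a -log10 q of at least 5, 112 bp from each Pol2S5p summit, 104 bp with 50% reciprocal overlap and 141 bp between midpoints. Median widths at a -log10 q of at least 5 were 769 bp joint and 423 bp not joint for E2F3, and 1148 and 958 bp for Pol2S5p. With summit windows they were 699 and 458 bp, and 1030 and 629 bp. By strength class E2F3 had 935 and 639, 642 and 458, and 371 and 314 bp, and Pol2S5p 1269 and 1217, 606 and 831, and 400 and 440 bp, so that for Pol2S5p the order of joint and not joint turned in the middle and weakest classes; the cause was not tested. Nearest distances at a -log10 q of at least 5 were 59.5 kb from E2F3 to Pol2S5p, 12.5 kb from Pol2S5p to E2F3 and 67.7 kb from H3K27me3 to Pol2S5p; summit to summit, Pol2S5p to E2F3 was 12.9 kb. As shares of covered bases, chromosome 19 held 7.71% of E2F3 and 9.57% of Pol2S5p, and chromosome 7 held 22.0% of H3K27me3 (20.7% of its regions at a -log10 q of at least 5).

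Alternatives for occupied promoters (another window, a stricter threshold) and for sequence at summits (another window) were not run. With 1 library per target the spread between libraries is unknown, and with no read depth a list's length cannot be set against it, so shares between lists hold for these lists and thresholds. The short H3K27me3 list limits every value that involves it.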
